A study of Mus musculus with 8 samples.

Results

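Sulfur amino acids reach a growing hair from methionine made into cysteine inside the cell and from cystine taken up from outside. The 9 genes described here belong to these routes or to the use of cysteine. All 9 were found by symbol in a table of 18540 genes measured in mouse wound skin. Mat2a, Gnmt and Ahcy belong to the methionine cycle, Cbs and Cth to transsulfuration, Cdo1 and Csad to cysteine oxidation and taurine synthesis, and Slc7a11 and Slc3a2 to cystine import. They were chosen by name, and selected on the control and ZCZ counts of these same libraries with the cysteine-rich hair proteins in view. Their differences between the groups are therefore given as a description, without a test. All 9 passed the filter on low counts, as did 15147 genes in all.

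Total RNA of skin wounds was sequenced in 4 controls and in 4 samples that had received ZCZ for 15 days. ZCZ is a particle of zinc peroxide and cerium oxide in the zeolitic framework ZIF-8, made to release oxygen and remove reactive oxygen species in diabetic wounds. In the wound experiments it was injected around full-thickness wounds of the back and the controls received PBS. The study used C57 mice and diabetic db/db mice, with a pair of wounds on each mouse, and tested composites with different ratios of cerium to zinc. Neither the strain, age and mouse behind a sequenced sample nor the composite it received is given by the labels, and nothing says that samples of a group came from separate animals. The p-values below then measure only the spread between these samples, which may be technical.

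Methionine is activated to S-adenosylmethionine, the methyl donor of most methylation reactions, and the spent donor is hydrolysed to homocysteine. Transsulfuration joins homocysteine to serine and releases cysteine, which is used for protein, glutathione, taurine and sulfide. The hair shaft is a major consumer, since its keratins and keratin associated proteins are cross-linked through the disulfide bonds of their cysteines.

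Libraries held between 28856790 and 38974888 counts on genes. Counts were scaled to library size (CPM) with TMM factors, and edgeR's quasi-likelihood test called 648 genes higher (4.28% of the 15147 tested) and 583 lower (3.85%) in ZCZ at an adjusted p under 0.05. In 1280 genes (8.45%) all ZCZ libraries lay above all control libraries, and in 1336 (8.82%) all lay below. All 10 epidermal keratinocyte markers were measured, with a summed level of 12593 to 15681 CPM in the controls and 14524 to 20066 CPM in ZCZ, and none was at 0 in any library. ZCZ-2 and ZCZ-4 stood apart in hair genes: the 56 keratin associated protein (Krtap) genes summed to 8856 and 8531 CPM there, to 1748 CPM in ZCZ-1 and to 319 CPM in ZCZ-5. The controls numbered 1, 2, 3 and 5 held 26.8, 82.0, 320.1 and 43.9 CPM, so that ZCZ-5 and control-3 were at one level. Without both libraries, no gene was called in either direction by edgeR, those of the hair and melanocyte lists below included. At an unadjusted p under 0.05, 973 were higher and 1007 lower. That fit has fewer ZCZ libraries, and the loss of calls was not particular to it. No gene was called either when control-5, ZCZ-1, ZCZ-2 or ZCZ-4 alone was left out.

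Of the 9 genes, 4 were higher in every ZCZ library than in every control (Gnmt, Cbs, Cth and Ahcy), none was lower in every ZCZ library, and 5 overlapped between the groups (Mat2a, Cdo1, Csad, Slc7a11 and Slc3a2). Over all genes tested, 8.45% were higher in every ZCZ library and 8.82% were lower, but the 9 were selected on these same counts. The median log2 fold change of the 9 was 0.15, against 0.01 over all genes tested. The genes with separated groups were those between the use of the methyl donor and the release of cysteine, while the first enzyme of the cycle and the cystine importer were not among them. In bulk tissue, a change in the number of cells of a type and a change in RNA per cell cannot be told apart, in either direction.

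**Figure D1:**
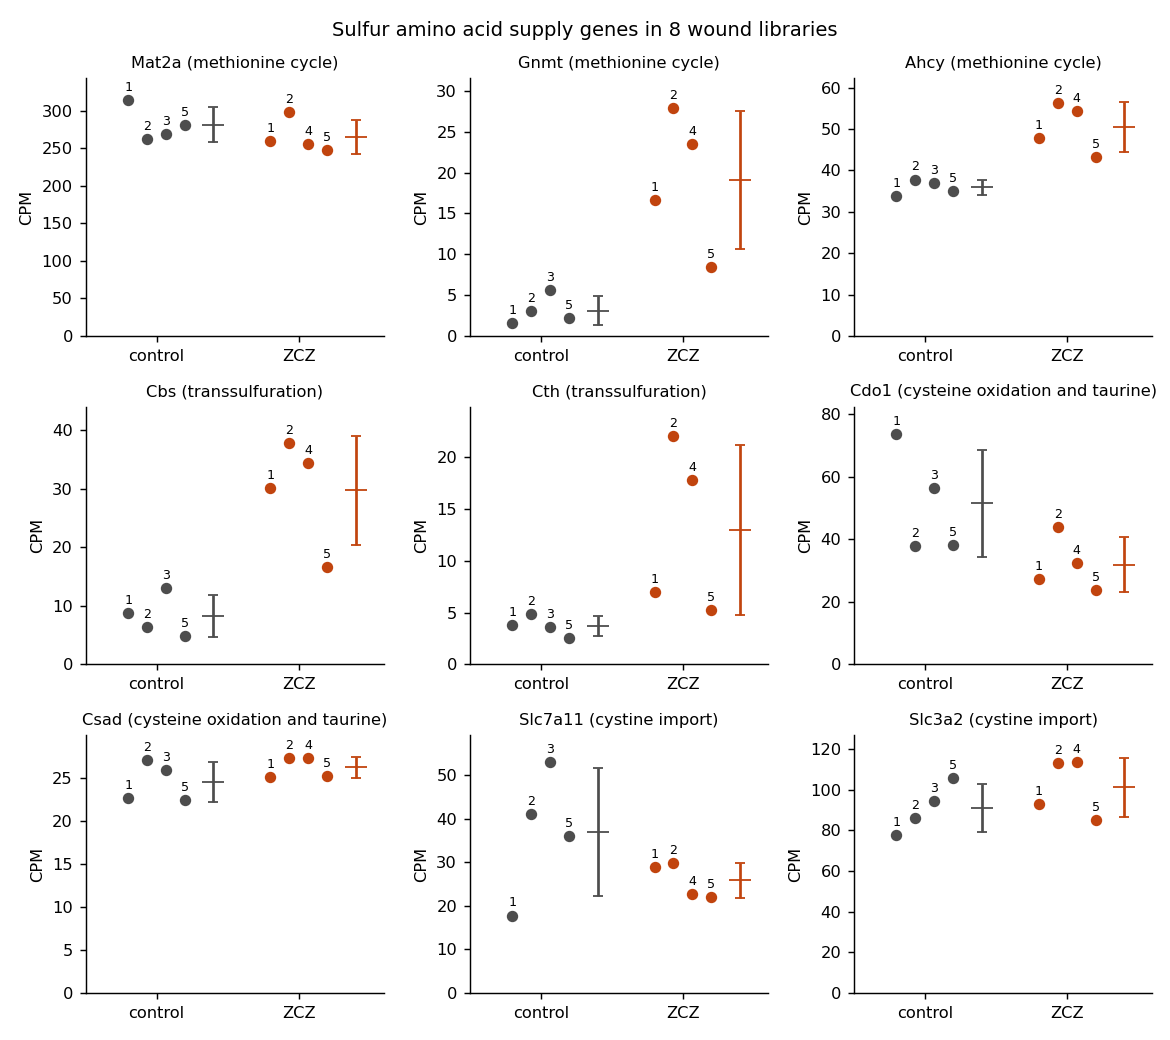
Level of each of the 9 genes in CPM (y axis, from 0) in the control libraries (grey) and the ZCZ libraries (red), with library numbers above the points and the mean ± SD (n = 4) as a bar at the side. Gnmt, Ahcy, Cbs and Cth lie higher in all ZCZ libraries, with ZCZ-2 and ZCZ-4 on top and ZCZ-5 lowest, and the other 5 overlap.

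Mat2a (Entrez 232087) encodes the catalytic subunit of the methionine adenosyltransferase found outside the liver. It was the most abundant of the 9 genes, at 314, 262, 269 and 281 CPM in the controls 1, 2, 3 and 5. The level was 260, 298, 256 and 248 CPM in the ZCZ libraries 1, 2, 4 and 5. The groups overlapped, at a log2 fold change of -0.09 ± 0.10 (SE, n = 4 and 4). Mat1a, the liver form, had at most 4 counts in any library and was not tested.

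Gnmt (Entrez 14711) encodes glycine N-methyltransferase, which transfers the methyl group of S-adenosylmethionine to glycine and is best known from liver. The 4 controls held 46, 112, 203 and 76 counts and the 4 ZCZ libraries 590, 1076, 936 and 306 counts, in the order of libraries above. As a level this was 1.63, 3.11, 5.59 and 2.14 CPM against 16.6, 27.9, 23.5 and 8.48 CPM. The lowest ZCZ library lay above the highest control, control-3, and in relation to the mean both groups were more spread than for Mat2a or Ahcy. The controls had a mean of 3.12 ± 1.76 CPM (SD, n = 4). ZCZ had a mean of 19.1 ± 8.47 CPM (SD, n = 4), which is 6.13 times higher, and the log2 fold change was 2.61 ± 0.45 (SE). Without ZCZ-2 and ZCZ-4 the log2 fold change was 2.00.

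Ahcy (Entrez 269378) encodes adenosylhomocysteinase, which splits the spent methyl donor into adenosine and homocysteine. It was measured at 33.8, 37.8, 37.0 and 35.1 CPM in the controls and at 47.9, 56.2, 54.4 and 43.1 CPM in ZCZ. The difference was small, 1.40 times, but the controls lay so close together that the groups were separated. The log2 fold change was 0.49 ± 0.10 (SE, n = 4 and 4), and 0.34 without ZCZ-2 and ZCZ-4. Per kilobase of exon, the level of Gnmt was 0.119 to 0.371 times that of Ahcy in the controls and 0.483 to 1.22 times in ZCZ.

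Cbs (Entrez 12411) encodes cystathionine beta-synthase, the entry step of transsulfuration, which condenses homocysteine with serine. Its libraries held 249, 233, 476 and 175 counts in the controls and 1067, 1461, 1368 and 601 counts in ZCZ. These were 8.85, 6.47, 13.1 and 4.93 CPM against 30.1, 37.9, 34.3 and 16.7 CPM. The ranges did not meet, and ZCZ-5 was closest to control-3. The mean was 8.34 ± 3.57 CPM (SD, n = 4) in the controls and 29.7 ± 9.28 CPM (SD, n = 4) in ZCZ. The log2 fold change was 1.83 ± 0.34 (SE), and 1.49 without ZCZ-2 and ZCZ-4.

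Cth (Entrez 107869) encodes cystathionine gamma-lyase, which cleaves cystathionine and releases cysteine. The controls held 106, 174, 130 and 89 counts and the ZCZ libraries 246, 849, 707 and 188 counts. The level was 3.77, 4.83, 3.58 and 2.51 CPM in the controls and 6.94, 22.0, 17.8 and 5.21 CPM in ZCZ. ZCZ-2 and ZCZ-4 were far above the rest, and ZCZ-5 exceeded control-2 only narrowly. The log2 fold change was 1.82 ± 0.45 (SE, n = 4 and 4), close to that of Cbs, but it was 0.73 without ZCZ-2 and ZCZ-4. The ratio of Cbs to Cth per kilobase of exon overlapped between the groups, at 0.388 to 1.06 in the controls and 0.499 to 1.26 in ZCZ.

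Cdo1 (Entrez 12583) encodes cysteine dioxygenase, which oxidises cysteine to cysteine sulfinate. It was found at 73.6, 37.7, 56.4 and 38.2 CPM in the controls and at 27.3, 44.0, 32.5 and 23.6 CPM in ZCZ. Only ZCZ-2 reached into the control range, and the log2 fold change was -0.69 ± 0.26 (SE, n = 4 and 4). Control-1 was the highest library, and without it the log2 fold change was -0.47. The summed level of 12 adipocyte markers moved the same way, at 1339 to 1964 CPM in the controls and 923 to 1520 CPM in ZCZ, and control-1, control-3 and ZCZ-2 led both orders. None of these 12 markers was called, and their part in the Cdo1 level was not tested.

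Csad (Entrez 246277) encodes the decarboxylase that turns cysteine sulfinate into hypotaurine, the precursor of taurine. Over the 8 libraries together its range was the narrowest of the 9 genes in relation to its level, although Ahcy and Mat2a were narrower within the controls. It was measured at 22.7, 27.1, 25.9 and 22.4 CPM in the controls and 25.1, 27.3, 27.3 and 25.3 CPM in ZCZ. The log2 fold change was 0.10 ± 0.09 (SE, n = 4 and 4), and the groups overlapped. Set against cysteine oxidation, Cbs stood at 0.0306 to 0.0592 times the level of Cdo1 per kilobase in the controls and at 0.180 to 0.280 times in ZCZ.

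Slc7a11 (Entrez 26570) encodes xCT, the subunit of the cystine/glutamate exchanger that carries the amino acids, and is also known as the cystine supply of pheomelanin in melanocytes. It was measured at 17.8, 41.2, 53.1 and 36.0 CPM in the controls and at 29.0, 29.8, 22.6 and 22.0 CPM in ZCZ. Control-1 was the lowest of all 8 libraries, whereas the other controls lay above every ZCZ library. The log2 fold change was -0.52 ± 0.28 (SE, n = 4 and 4), and it depended on single controls, at -0.75 without control-1 and -0.30 without control-3. Control-1 was also the library with the highest summed level of 16 skeletal muscle markers, 8400 CPM against 4457 to 5974 CPM in the other controls. Its part in the Slc7a11 level was not tested.

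Slc3a2 (Entrez 17254) encodes the 4F2 heavy chain, which brings Slc7a11 and several other amino acid transporters to the cell surface. It was found at 77.9, 86.3, 94.5 and 106 CPM in the controls and at 93.2, 113, 114 and 85.0 CPM in ZCZ. The groups overlapped, with a log2 fold change of 0.15 ± 0.13 (SE, n = 4 and 4), and the sign turned to -0.03 without ZCZ-2 and ZCZ-4. The ratio of Slc3a2 to Slc7a11 per kilobase of exon overlapped between the groups, at 5.80 to 14.3 in the controls and 10.5 to 16.3 in ZCZ. Cbs and Cth were also set against Slc7a11. Both were among the genes with separated groups and the mean of Slc7a11 was lower in ZCZ. The difference in their ratios therefore follows in part from that choice. Mat2a, Gnmt and Ahcy were not set against Slc7a11 in this way. Per kilobase of exon, Cbs was at 0.215 to 0.781 times the level of Slc7a11 in the controls and at 1.19 to 2.38 times in ZCZ. Cth was at 0.366 to 1.15 times Slc7a11 in the controls and at 1.28 to 4.25 times in ZCZ.

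Of the 7 members with a RefSeq promoter window (all but Cth and Cdo1), Slc7a11 alone held a searched motif. The windows run from 250 bases before to 50 after the start of a transcript. The searched letters were TGATGNAA, the core of the amino acid response element bound by ATF4, and TGACNNNGC, the core of the antioxidant response element bound by NRF2, on both strands. The amino acid response core was found in 3.01% of the 11953 tested genes with a window and the antioxidant response core in 16.8%. The stretch is shown because it holds both matches of the amino acid response core, in capitals, facing each other with 11 bases between them. It lies at chr3:50443633-50443699 on the minus strand of GRCm38.p6, 86 to 20 bases before the start.
Slc7a11 promoter: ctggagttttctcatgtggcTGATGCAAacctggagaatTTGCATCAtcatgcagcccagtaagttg
No window of Mat2a, Gnmt, Ahcy, Cbs, Csad or Slc3a2 held these letters. The RNA of Atf4 was at 190 ± 33.3 CPM (SD, n = 4) in the controls and 177 ± 16.9 CPM (SD, n = 4) in ZCZ. It was not called, with an edgeR adjusted p of 0.633. These libraries measure neither the ATF4 protein nor its binding to this stretch.

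Levels of different genes were compared per kilobase of merged exon. In the controls the order was Mat2a at 83.1, Cdo1 at 32.3, Slc3a2 at 30.1, Ahcy at 14.1, Csad at 10.8, Slc7a11 at 3.76, Gnmt at 3.01, Cth at 2.02 and Cbs at 1.33 CPM per kilobase. The ranges of Cdo1 and Slc3a2 overlapped, as did those of each neighbouring pair from Slc7a11 down to Cbs. In ZCZ the order was Mat2a at 78.3, Slc3a2 at 33.5, Cdo1 at 19.97, Ahcy at 19.8, Gnmt at 18.5, Csad at 11.5, Cth at 7.15, Cbs at 4.75 and Slc7a11 at 2.63 CPM per kilobase. From Cdo1 down, each neighbouring pair overlapped. The mean of Slc7a11 was above those of Gnmt, Cth and Cbs in the controls and below all of them in ZCZ, although its range overlapped that of its nearest neighbour in both groups.

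Gnmt, Ahcy, Cbs, Cth and Cdo1 had the same order of ZCZ libraries, ZCZ-2, ZCZ-4, ZCZ-1 and ZCZ-5, as the summed Krtap level. This order was shared by 1255 of the 15147 genes tested (8.29%), and by 270 (21.1%) of the 1280 genes higher in every ZCZ library. Gnmt also kept the order of the summed hair shaft list over all 8 libraries, from ZCZ-2 down to control-1. Both were higher in every ZCZ library, and the share of all genes with this full order was not counted. That list of 16 cortex and cuticle markers summed to 109 to 547 CPM in the controls and 595 to 4793 CPM in ZCZ, and 14 of its 15 tested genes were called higher. Of the Krtap genes, 45 of 50 tested were called higher and 23 did not overlap. These are descriptions over 8 libraries that share their group labels and their normalization.

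**Figure D2:**
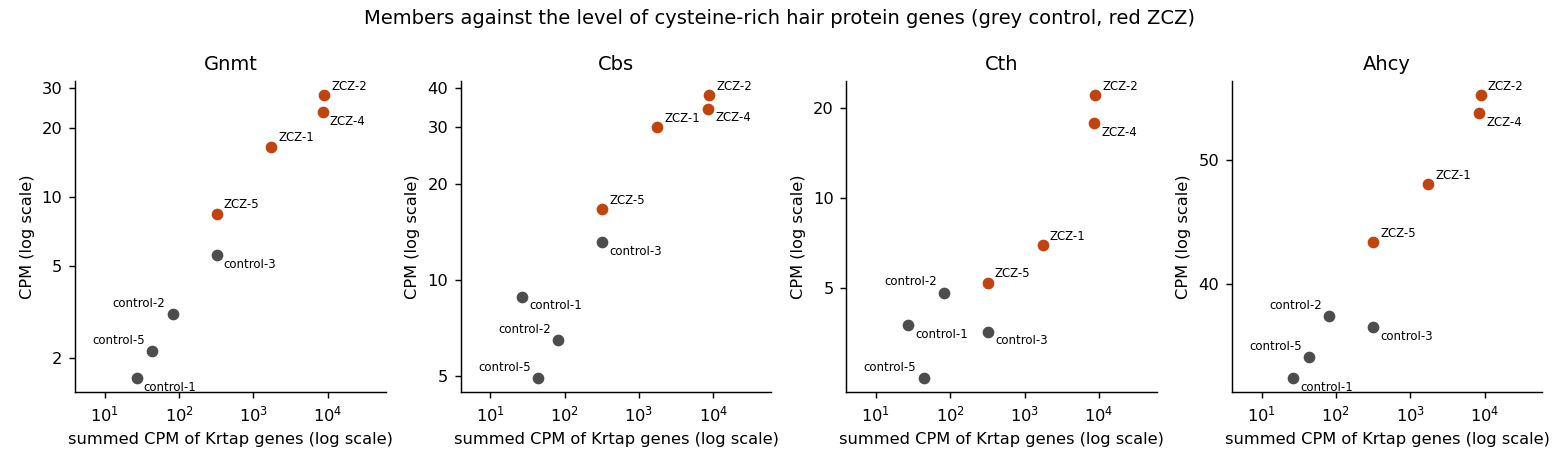
Level of Gnmt, Cbs, Cth and Ahcy in CPM (y axis, log scale) against the summed level of 56 Krtap genes in CPM (x axis, log scale), 1 point for each of the 8 libraries, controls in grey and ZCZ in red. Control-3 and ZCZ-5 have nearly the same Krtap sum (320.1 and 319 CPM), while the hair shaft list summed to 547 and 595 CPM there. The 4 genes are shown because they lie higher in every ZCZ library. Their higher level in ZCZ-5 than in control-3 follows from that choice.

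The genes most like each of the 4 separated members were found by the root mean square (RMS) difference of log2 CPM, centred on each gene's mean over the 8 libraries. Gnmt was nearest to Krt35 (RMS 0.137) and Krt85 (0.248), keratins of the hair matrix and cuticle, and to Fbp1 (0.250), an enzyme of gluconeogenesis. Cbs was nearest to Slc24a5 (0.144) and Tyr (0.171), genes of melanosomes and melanin synthesis, and to Dnajc6 (0.194). Ahcy was nearest to Lypd5 (0.0550), Gtpbp1 (0.0560) and Slc44a1 (0.0608), and Cth to Krt8 (0.245), Crip3 (0.253) and Tpd52l1 (0.277). Krt8 and Crip3 were near the floor, at 0.394 to 0.909 and 0.213 to 0.386 CPM in the controls, so their likeness to Cth is imprecise. None of the 4 members was among the 3 genes nearest to another. Cbs stood at rank 60 from Gnmt and Cth at rank 193 from Cbs, with RMS differences of 0.562 and 0.544. These ranks are among the 15147 genes tested, so both pairs were close. From Ahcy, in contrast, Cth stood at rank 13817, Cbs at rank 13950 and Gnmt at rank 14752. The measure depends on the size of a change as well as on its pattern.

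The melanocyte list was higher in ZCZ, as was Cbs. Of its 10 markers, 8 were called higher. The sum of the list was 184 to 280 CPM in the controls and 361 to 745 CPM in ZCZ. Its order over the 8 libraries was that of Cbs. Both were higher in every ZCZ library, so part of this match follows from the separation of the groups. The share of all genes with this full order was not counted. The sums of the other lists were as follows. Fibroblast markers summed to 56385 to 79716 CPM in the controls and 44311 to 61741 CPM in ZCZ, with 3 of 10 called lower. Skeletal muscle markers summed to 4457 to 8400 CPM and 3777 to 4272 CPM, with 4 of 16 called lower. Neutrophil markers summed to 611 to 1563 CPM and 177 to 721 CPM with none of 9 called, and Ly6g, Ngp and Camp were at 0 in at least 1 library. Macrophage markers summed to 2782 to 3126 CPM and 1703 to 2842 CPM, and endothelial markers to 384 to 1032 CPM and 345 to 626 CPM. Sebaceous gland markers summed to 967 to 1738 CPM and 1139 to 1520 CPM, with 1 of 12 called higher. The part of these cell types in the levels of the 9 genes was not tested.

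The cysteine that the RNA of each library would encode was computed from the counts and the cysteine share of each gene's protein. Krtap proteins held a median of 20.3% cysteine (0 to 42.8%, 56 proteins), against 2% over 17494 proteins. The encoded share was 2.02, 2.03, 2.03 and 2.04% in the controls and 2.07, 2.20, 2.19 and 2.01% in ZCZ. ZCZ-1, ZCZ-2 and ZCZ-4 lay above all controls and ZCZ-5 lay below them. The mean was 2.03 ± 0.0106% (SD, n = 4) in the controls and 2.12 ± 0.0920% (SD, n = 4) in ZCZ, a difference of 0.0866 percentage points. It was 0.0233 percentage points without the Krtap genes and 0.0095 percentage points without ZCZ-2 and ZCZ-4. Krtap genes carried 0.0215, 0.0790, 0.308 and 0.0343% of the encoded cysteine in the controls and 1.54, 6.05, 6.04 and 0.312% in ZCZ. ZCZ-5, in which Gnmt, Cbs, Cth and Ahcy were lowest among the treated libraries, was thus at the level of control-3 in the Krtap part.

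**Figure D3:**
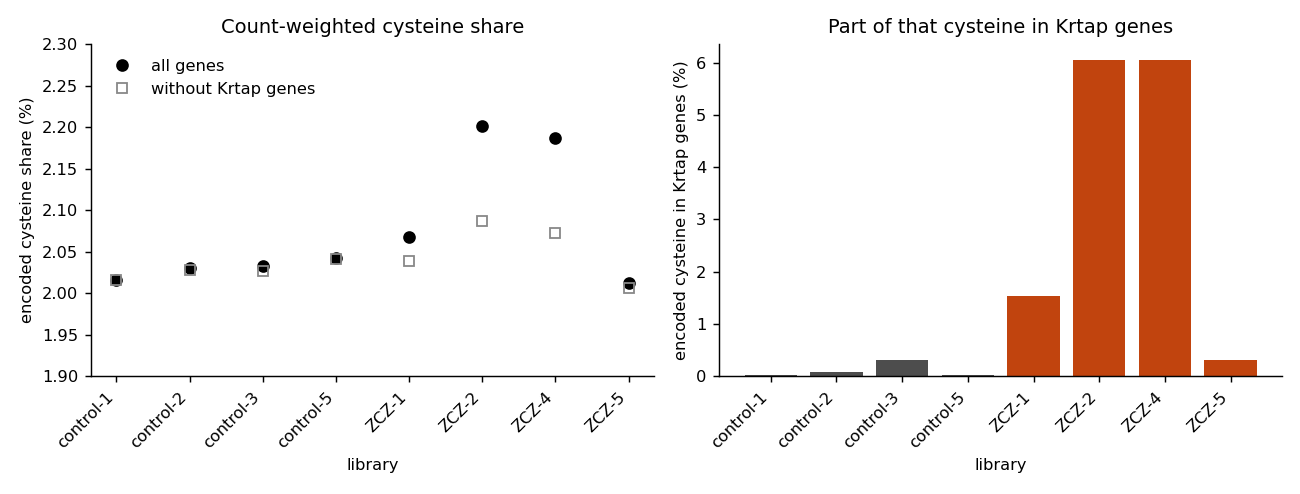
Left, cysteine share of the protein encoded by the counts of each library in percent (y axis, not drawn from 0), with all genes (filled circles) and without Krtap genes (open squares). Right, part of that cysteine carried by Krtap genes in percent (bars from 0, controls grey, ZCZ red), which was 6.05 and 6.04 in ZCZ-2 and ZCZ-4 and 0.312 or less in ZCZ-5 and the controls.

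The other genes of sulfur amino acid metabolism were taken from 6 lists with 81 genes, of which 77 were tested. edgeR called 9 higher (11.7%) and 6 lower (7.79%), against 4.28% and 3.85% of all genes tested. The median log2 fold change was -0.02, against 0.01 over all genes tested. These whole-table shares are also the background for the counts of each list below. Around the methionine cycle, 0 of 12 tested genes were called higher and 1 lower, which was Nnmt, and none of 10 genes of methionine salvage and polyamine synthesis was called. The 3 untested genes of the cycle list, Mat1a, Bhmt and Bhmt2, had at most 8 counts in any library. RNA of the betaine-dependent methyltransferases was thus near the limit of detection, and Mtr, the methionine synthase, was not called (log2 fold change -0.39, adjusted p = 0.229). Nnmt, which spends methyl groups on nicotinamide, fell by 0.45 on the log2 scale, with an adjusted p of 0.0395 in edgeR.

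Of 15 glutathione genes, 4 were called higher and none lower, with a median log2 fold change of 0.27. Gclc, the catalytic subunit of glutamate-cysteine ligase, was at 45.3 to 48.5 CPM in the controls and 58.9 to 93.3 CPM in ZCZ (edgeR adjusted p = 0.0299). Ggt1, which cleaves glutathione outside the cell, was at 1.71 to 4.93 CPM and 7.60 to 15.9 CPM (edgeR adjusted p = 0.0303). Lap3, an aminopeptidase that splits cysteinylglycine, was at 108 to 153 CPM and 173 to 407 CPM (edgeR adjusted p = 0.0364). Chac1, which degrades glutathione in the cytosol, was at 2.54 to 4.41 CPM and 3.96 to 23.0 CPM. It was called (edgeR adjusted p = 0.0370) although ZCZ-5 lay within the control range. Without ZCZ-2 and ZCZ-4 the log2 fold change went from 2.14 to 1.09 for Chac1 and from 1.15 to 0.61 for Lap3. As with the 4 separated members, ZCZ-5 was the lowest treated library for all 4 of these genes.

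Among 13 tested transporters, 2 were called higher and 2 lower. Slc7a8, a light chain that also pairs with Slc3a2 and carries neutral amino acids, was at 24.9 to 43.1 CPM in the controls and 52.5 to 81.7 CPM in ZCZ (edgeR adjusted p = 0.0299). Ctns, which exports cystine from lysosomes, was at 17.4 to 24.1 CPM and 24.5 to 40.6 CPM (edgeR adjusted p = 0.0398). The glutamine transporter Slc1a5 fell by 0.41 on the log2 scale (edgeR adjusted p = 0.0299) and Slc43a1, a carrier of large neutral amino acids, by 0.63 (edgeR adjusted p = 0.0303). Slc7a11 thus had as neighbours carriers that rose and carriers that fell.

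Among the genes of cysteine breakdown 2 of 14 were called higher and 1 lower. Got1, the cytosolic aspartate aminotransferase that also acts on cysteine sulfinate, fell by 0.92 on the log2 scale (edgeR adjusted p = 0.0339). In the list of serine synthesis and stress response 1 of 13 genes was called higher and 2 lower. The lower genes were Nfe2l2, which encodes NRF2, and Bach1, a repressor at antioxidant response elements. They fell by 0.48 (edgeR adjusted p = 0.0299) and by 0.92 on the log2 scale (edgeR adjusted p = 0.0299). Without ZCZ-2 and ZCZ-4 none of the 77 genes was called by edgeR, while 8 were higher and 7 lower at an unadjusted p under 0.05. None was called either when control-5, ZCZ-1, ZCZ-2 or ZCZ-4 alone was left out.

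**Figure D4:**
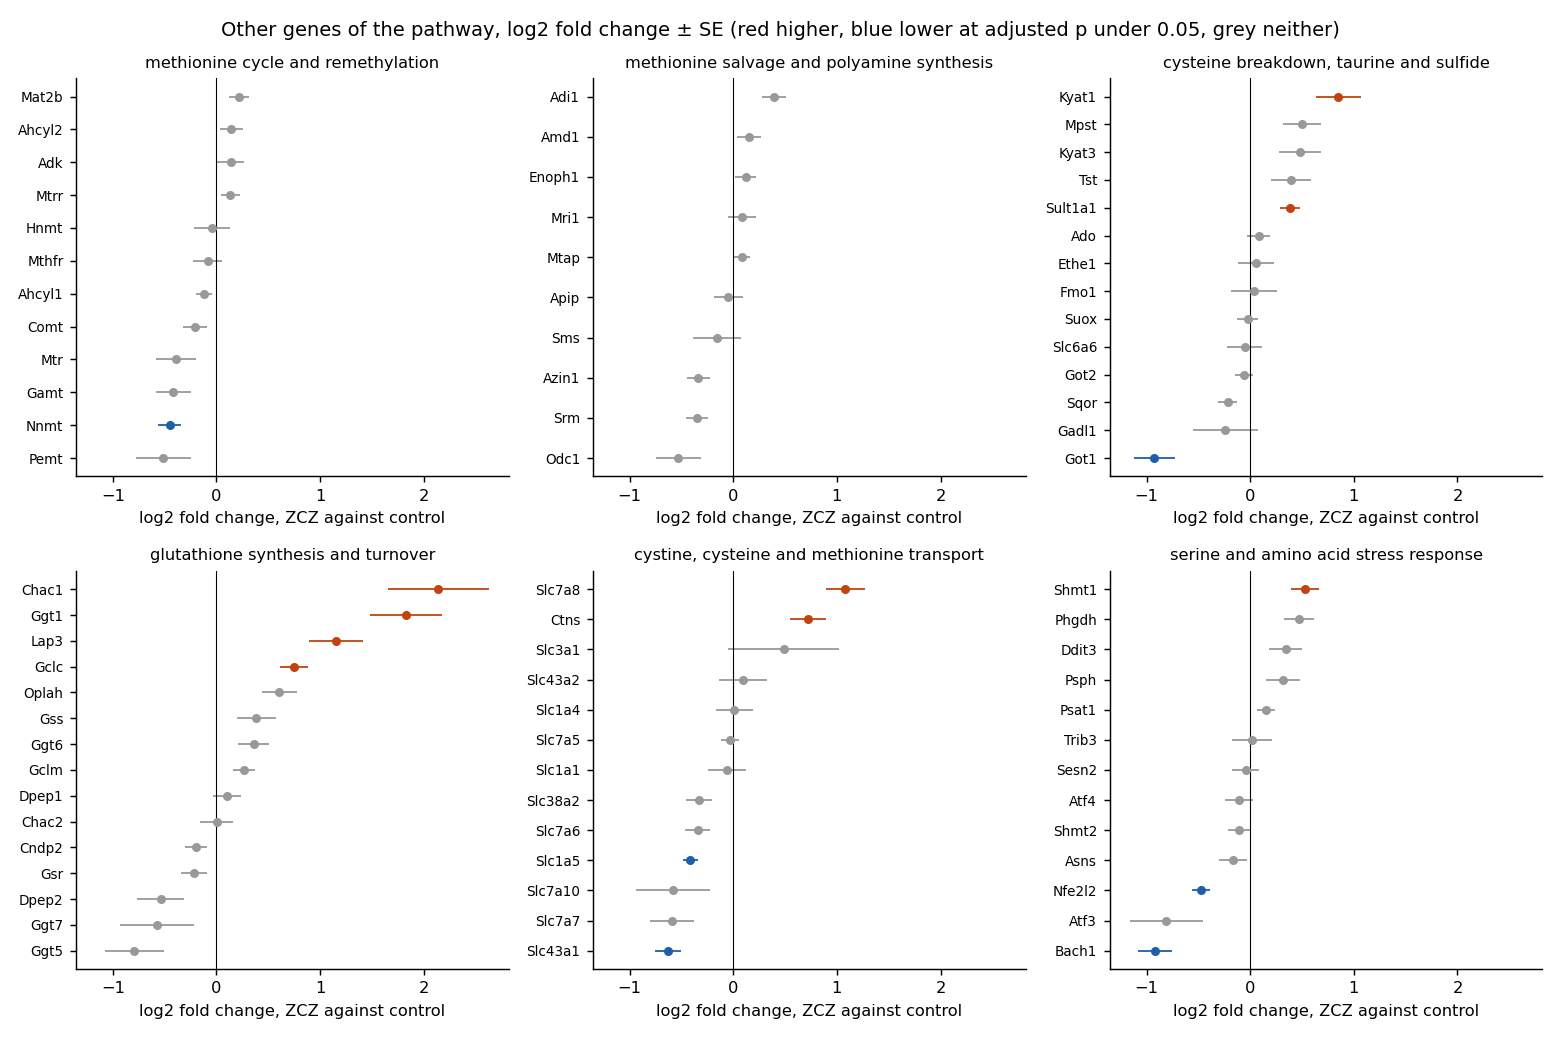
Log2 fold change of ZCZ against control (x axis) with its SE for the 77 tested genes of the 6 lists, 1 panel for each list, in red for genes called higher, in blue for genes called lower and in grey for the rest. Of the 15 called genes, 4 of the 9 higher are in the glutathione panel, and none is in the salvage panel.

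Mat2a shared 508 exon bases with Particl and Csad 278 with Zfp740, both on the opposite strand in GENCODE M21, and the strand setting of the counts was not given in the sources used here. The other 7 genes shared no exon bases with a neighbour.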

How the data were processed

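The deposited values are counts of reads on genes, not normalized by the authors, for 8 libraries of mouse wound skin. The labels describe removal of ribosomal RNA, random priming and dUTP in the second strand, and they name Trizol where the methods name another kit. The aligner, counter, genome build and strand setting are not given in the sources used here. Groups were taken from the sample titles, and 0 columns of per-sample values were left unused. The 9 members and all lists were chosen with earlier results of these data known.

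Tests used edgeR 4.0.16 under R 4.3.3 (filterByExpr, TMM, quasi-likelihood test, no covariate, Benjamini-Hochberg adjustment over all genes tested), with a threshold of 0.05. Standard errors came from the F statistic, and log2 CPM had a prior count of 2. Libraries of about equal depth leave single genes under 10 counts imprecise. Listed genes past the threshold were named, at most the 6 with the smallest p in each direction, besides all members and the 3 genes most like each separated member. Atf4 and Mtr were named after their values were seen. Encoded cysteine used the longest complete GENCODE M21 protein of each symbol, in place of a RefSeq protein as planned. Exon lengths were from the same annotation and promoters from RefSeq on GRCm38.p6. On counts simulated for 15147 genes with a log2 fold change of 2, 193 of 199 changed genes were recovered, with 6 false calls. This change was larger than most described here, and the simulated libraries of a group shared their expected level. Recovery of smaller changes, or of changes uneven between libraries, was not tested. Alternatives were DESeq2 1.42.0, RLE and upper quartile factors, other filters, a replicate block, a fold threshold and libraries left out.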

Additional observations from a re-analysis of the deposited data

Results flagged for a closer look

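Among the 52 groups of 4 libraries examined (the members, the called genes of the pathway, the Krtap sum and the encoded cysteine share), 2 held a library far from the others by Dixon's ratio. Chance alone gives about 1 in 20 groups. Nnmt was lowest in control-2, at 31.1 CPM against 36.5 to 37.2 CPM in the other controls (ratio 0.892). Slc7a8 was lowest among the treated libraries in ZCZ-5, at 52.5 CPM against 78.4 to 81.7 CPM (ratio 0.906). No group of the 9 sulfur amino acid supply genes held such a library.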

How the results depend on the processing

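All 9 members kept their sign in each of the 15 alternatives, with the exception of Slc3a2 without ZCZ-2 and ZCZ-4 together, a setting added once the values were known. With a replicate block, 301 genes were higher and 253 lower in the whole table and 2 and 2 among the pathway genes. DESeq2 called 1243 and 1513 genes, and 12 and 10 of the pathway. An added threshold of 1 on the absolute log2 fold change left 326 and 189 genes, and 4 and 0 of the pathway. Without ZCZ-2 and ZCZ-4 edgeR called 0 and 0 genes, and 0 and 0 of the pathway (973 and 1007, and 8 and 7, at an unadjusted p under 0.05). Leaving out 1 library gave 0 to 886 higher and 0 to 868 lower genes, and 0 to 10 and 0 to 6 of the pathway. In edgeR no gene was called without control-5 (1592 higher and 1631 lower at an unadjusted p under 0.05), ZCZ-1 (2033 and 2175), ZCZ-2 (1522 and 1615) or ZCZ-4 (1443 and 1657). Without control-2 25 genes were higher and 98 lower, and 0 and 2 of the pathway, and without control-1 5 and 6 of the pathway. The cause was not tested. The 15 pathway genes called by edgeR kept their direction in all 15 alternatives, but the adjusted p of each was above 0.05 in some.

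The sample numbers 1, 2 and 5 occur in both groups. Same-numbered libraries had correlated deviations of -0.101, -0.0623 and 0.323, so the numbers were not taken to pair them. In the block fit control-3 and ZCZ-4, which have no partner, carry no weight in the difference, and Slc7a11 was at -0.17. The difference in encoded cysteine was 0.0192 percentage points without Krtap and keratin genes, 0.0095 without ZCZ-2 and ZCZ-4, and 0.0586 to 0.122 with 1 library left out, settings added once the values were known. Cth had as few as 89 counts and Gnmt 46 in a control, which limits their fold changes more than those of Mat2a.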
